A study of Mus musculus with 12 samples.

Results

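The miR-322, miR-503 and miR-351 cluster is a group of miRNA genes on mouse chromosome X, and its products were measured in exosomes of granulosa cells, the somatic cells that surround the oocyte in the ovarian follicle. Its members were chosen by name as mmu-miR-322-5p, mmu-miR-322-3p, mmu-miR-503-5p, mmu-miR-351-5p and mmu-miR-450a-5p, written below without mmu-, the mark of the mouse. They belong to a cluster linked to granulosa cell proliferation, and 4 of the 5 are among the 637 entries of the count tables. miR-322-5p was not analysed here, since these tables hold no entry under that name. In the exosomes, miR-322-3p, miR-503-5p and miR-503-3p, the other arm of the miR-503 hairpin, were lower in the DFO group than in the FAC group. Their libraries did not overlap, and 10.1% of all entries tested were likewise lower without overlap. In edgeR with TMM scaling, these products were all past the threshold used here before adjustment for the number of entries tested and none after it. They were 2 of the 4 members and 1 of the 5 other cluster products tested, beside 4.75% of all entries past it as lower. However, miR-322-3p and miR-503-3p were at an adjusted p under 0.05 in some of the other fits given below. In FAC against CON, 89 of 547 entries were so in edgeR with read totals and 114 in limma on log2(RPM + 1), beside 1 with TMM. In DFO against FAC, 43 of 547 were so in DESeq2, 18 in limma on log2(RPM + 1) and 15 with read totals, beside 5 with TMM. The edgeR calls of miR-322-3p and miR-503-5p in DFO against FAC were each lost when certain single libraries were left out. miR-351-5p, the member with the highest mean level in each group, did not pass the threshold in any of 5 comparisons in edgeR with TMM scaling. In the fits below that scale to a library's read total, it passed in FAC against CON, higher in FAC. With that scaling in edgeR, 29.1% of all entries passed as higher there. In limma on log2(RPM + 1), it also passed in VE against CON, beside 97 of 547 entries.

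Small RNA from 12 exosome libraries was sequenced, 3 in each of 4 groups. All cells were granulosa cells of Kunming mice injected with a horse serum gonadotropin, a hormone that makes follicles grow, and all were cultured for 48 h after 24 h in medium free of exosomes. The CON group was given no treatment, the FAC group 100 μM ferric citrate, an iron salt. The DFO group was given 100 μM ferric citrate and 100 μM deferoxamine mesylate, which binds iron, and the VE group 100 μM ferric citrate and 200 μM VITE (vitamin E), a lipophilic antioxidant. The cells came from a follicular mixture rather than from 1 follicle, and the exosomes were the pellet of the spun culture medium. No label says that the 3 libraries of a group came from separate cultures or animals, so every p below measures the spread between these libraries, which may be technical. A lower level can come from fewer vesicles that hold a miRNA or from less of it per vesicle, and bulk libraries cannot tell these apart.

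A miRNA gene is transcribed as a longer RNA that folds into a hairpin, and the hairpin is cut into a duplex of 2 arms, named 5p and 3p. One arm is usually loaded into an Argonaute protein and pairs with target mRNAs mainly through its seed, bases 2 to 8, and the other is mostly degraded. miR-322-5p (the mouse counterpart of human miR-424) and miR-503-5p belong to the miR-15 and miR-16 family, known for targeting cyclins and other genes of cell cycle entry, and they are made from neighbouring hairpins.

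The mature sequences show which products share a seed and so which other entries of the tables can act on similar sites. They are given 5′ to 3′ with the seed in capitals, as RefSeq lists them for GRCm38.p6.
miR-322-5p: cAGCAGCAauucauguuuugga
miR-16-5p: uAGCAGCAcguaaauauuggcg
miR-503-5p: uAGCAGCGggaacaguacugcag
miR-351-5p: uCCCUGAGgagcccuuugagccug
miR-125a-5p: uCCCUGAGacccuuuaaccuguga
miR-125b-5p: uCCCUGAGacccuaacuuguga
miR-322-3p: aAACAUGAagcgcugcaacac
miR-503-3p: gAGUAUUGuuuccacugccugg
miR-450a-5p: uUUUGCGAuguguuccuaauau
The seed of miR-322-5p is that of miR-16-5p, and miR-503-5p shares bases 2 to 7 with both. miR-351-5p has the seed of miR-125a-5p and miR-125b-5p. The seeds of the 3p arms of miR-322 and miR-503 differ from those of their 5p arms, so the arms of 1 hairpin are separate regulators. miR-450a-5p has the same mature sequence from the hairpins of Mir450-1 and Mir450-2, and its counts cannot be divided between them.

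The cluster lies on the minus strand of chromosome X between the protein-coding genes Hprt and Plac1. In GRCm38.p6, miR-322-3p is at chrX:53054269-53054289, miR-503-5p at chrX:53054027-53054049 and miR-351-5p at chrX:53053315-53053338. The copies of miR-450a-5p are at chrX:53048206-53048227 and chrX:53048339-53048360. The 7 hairpin genes span 6320 bases from the first to the last mature base, with 200 bases between the annotated hairpins of Mir503 and Mir322 and 630 between those of Mir351 and Mir503. No mature sequence of the cluster overlaps another gene of the GENCODE vM21 annotation. The labels give mm9 as the build of the deposited tables, and no position was converted between builds. The hairpin of Mir503 is printed since the shares of its arms varied between libraries, with the 5p arm and then the 3p arm in capitals.
Mir503: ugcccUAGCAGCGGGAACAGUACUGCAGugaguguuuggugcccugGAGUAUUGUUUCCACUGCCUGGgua

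The miRNA counts of a library summed to between 452021 and 7565362, and made up 2.0% to 5.0% of the library's reads in CON, 21.6% to 30.4% in FAC, 5.53% to 19.9% in DFO and 9.20% to 14.6% in VE. Levels below are CPM, counts scaled to a library's miRNA counts with TMM factors, so they are relative to the other miRNAs. A floor of 3 counts was 0.351 to 7.90 CPM, and floors and intervals of shares cover no error but that of counting, as amplification makes several reads of 1 molecule. Counts between 10 and 500 peaked at 20.3 to 198 counts, depending on the library. miR-351-5p stood above 2 times its library's peak in 12 of 12 libraries, miR-322-3p in 10, miR-503-5p in 5 of the 10 libraries that counted it, and miR-450a-5p in 2 of 7. Of a list of 14 marker miRNAs of other cells, 13 are entries and 11 of these had a count in the FAC, DFO and VE groups and 10 in CON, and together they took 16.2% to 26.2% of the miRNA counts in CON, 14.4% to 25.8% in FAC, 9.34% to 23.8% in DFO and 26.7% to 31.7% in VE. The liver and serum miRNA miR-122-5p was present in every library, at 4.77% to 17.1%. Of the 3 red blood cell markers, miR-486a-5p (joined with miR-486b-5p) and miR-451a were counted in 12 of 12 libraries, miR-486a-5p at 0.779% to 16.8% of the miRNA counts, and miR-144-3p had 1 count in all. The red blood cell list summed to 2.69% to 5.52% in CON, 0.822% to 9.74% in FAC, 1.76% to 8.32% in DFO and 8.32% to 16.9% in VE. The part of such RNA in the results below was not tested.

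**Figure D1:**
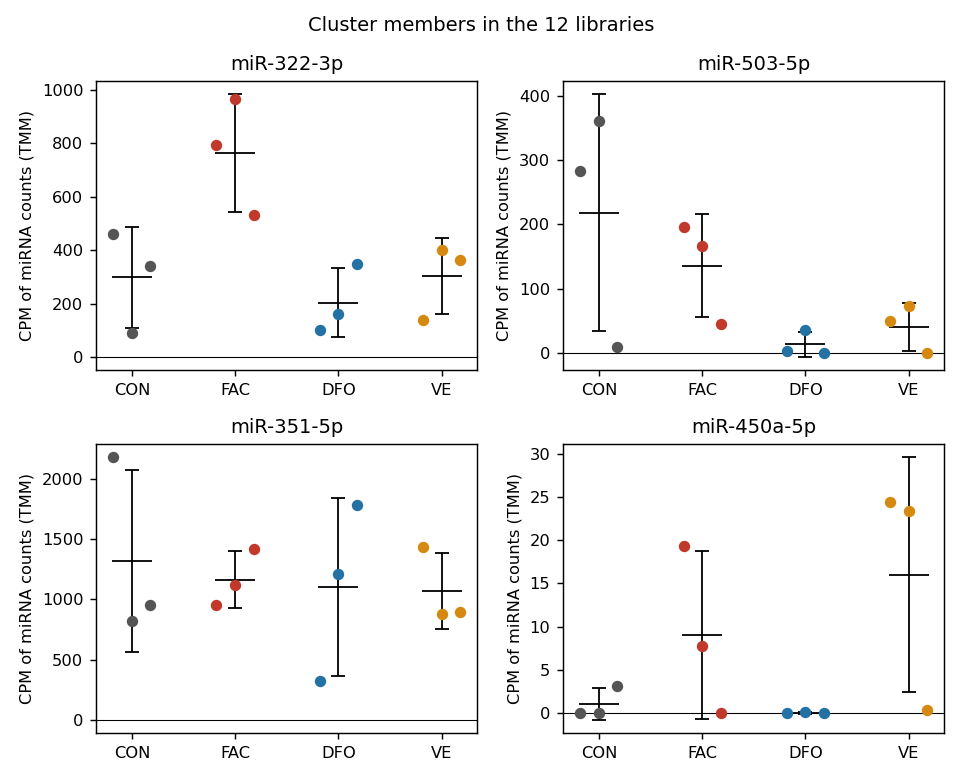
Level of each of 4 members (CPM of miRNA counts with TMM scaling, linear axes) by group. Points are the 3 libraries of a group, left to right replicates 1 to 3, long bars the mean and whiskers the SD. The FAC libraries of miR-322-3p, at 530 to 967 CPM, lie above those of the other groups, and the groups of miR-351-5p overlap.

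Across the 12 libraries, miR-351-5p had the highest median level of the members at 1038 CPM, followed by miR-322-3p at 356 CPM, miR-503-5p at 46.5 CPM and miR-450a-5p at 0.247 CPM. These are comparisons of counts of short RNAs of similar length, 21 to 24 bases, and differences in how well each is captured by the library preparation are part of them. miR-351-5p ranked 31 to 64 among all entries by its count in a library. The seed relatives of miR-322-5p were scarce in the same libraries. miR-15a-5p, miR-15b-5p, miR-16-5p, miR-195a-5p and miR-497a-5p together had 1 to 309 counts per library, 0.359 to 41.3 CPM, which is below the level of miR-322-3p in every library.

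mmu-miR-322-3p, the 3p arm of the first hairpin of the cluster on its strand, stood at 462, 89.5 and 341 CPM in CON replicates 1 to 3 and at 793, 967 and 530 CPM in the FAC replicates. It stood at 102, 161 and 348 CPM in the DFO replicates and at 139, 402 and 364 CPM in the VE replicates. The 3 FAC libraries were thus the highest of the 12, and the CON, DFO and VE libraries overlapped. The means were 298 ± 190 CPM in CON, 763 ± 220 in FAC, 203 ± 128 in DFO and 302 ± 142 in VE (SD, n = 3). In the order DFO, CON, VE and FAC, only VE and FAC are neighbours whose libraries did not overlap.

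Tested with edgeR's quasi-likelihood test, miR-322-3p was lower in DFO than in FAC by a log2 fold change of -1.91 (standard error 0.94, Benjamini-Hochberg adjusted p = 0.382). It passed the threshold of a fold of at least 1.5 with an unadjusted p under 0.05 but not the adjustment over the 547 entries tested. Its log2 fold change was 1.36 in FAC against CON (standard error 0.93, adjusted p = 0.607) and -1.34 in VE against FAC (standard error 0.93, adjusted p = 0.521), and neither passed in this fit. In VE against FAC it did pass before adjustment with the 2 compared groups alone (-1.55, adjusted p = 0.172) and with DESeq2 (-1.45, adjusted p = 0.230), and both comparisons passed with read totals as library sizes, given below. The median log2 fold change of all entries tested was 1.38 in FAC against CON, and the value of miR-322-3p there is close to that median. The median includes scarce entries, and 266 to 284 entries had a count in a CON library and 299 to 475 in a FAC library. The part of this difference in the median was not tested. Of the entries past the threshold there, 13 were higher and 39 lower. In DFO and VE against FAC, where the medians of all entries were -0.66 and -0.63, miR-322-3p lay below them. Against CON, its log2 fold changes in edgeR were -0.55 for DFO (adjusted p = 0.939) and 0.02 for VE (adjusted p = 1).

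The call for miR-322-3p in DFO against FAC rested on single libraries. In edgeR it was lost without FAC replicate 1, FAC replicate 2, DFO replicate 1 or DFO replicate 2, while the log2 fold change stayed between -2.54 and -1.73. DESeq2 gave -1.86 with an adjusted p of 0.0410, and 43 of 547 entries were at an adjusted p under 0.05 there. Over the alternatives that kept all libraries, the adjusted p of miR-322-3p ran from 0.0406 to 0.425.

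mmu-miR-503-5p, the cell cycle family member, was far more uneven within groups. It had 283, 361 and 9.43 CPM in the CON replicates, 196, 166 and 44.3 CPM in the FAC replicates, 3.45, 35.7 and 0 CPM in the DFO replicates and 48.8, 72.5 and 0 CPM in the VE replicates. The zeros of DFO replicate 3 and VE replicate 3 allow up to 2.25 and 0.943 CPM. All FAC libraries lay above all DFO libraries, and the other comparisons overlapped, those with CON through CON replicate 3, which had 6 counts. The means were 218 ± 185 CPM in CON, 135 ± 80.3 in FAC, 13.0 ± 19.7 in DFO and 40.4 ± 37.0 in VE (SD, n = 3).

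In edgeR, miR-503-5p was lower in DFO than in FAC by a log2 fold change of -3.36 (standard error 1.47, adjusted p = 0.273) and lower in DFO than in CON by -4.04 (standard error 1.51, adjusted p = 0.373), both past the threshold. It had a log2 fold change of -0.69 in FAC against CON (adjusted p = 0.803), -1.74 in VE against FAC (adjusted p = 0.521) and -2.43 in VE against CON (adjusted p = 0.524) in the same edgeR fit, none past it. The DFO and FAC difference was not past the threshold with DESeq2 (adjusted p = 0.258) or with edgeR's own expression filter (adjusted p = 0.457), nor in edgeR without FAC replicate 1, DFO replicate 1 or DFO replicate 3. The DFO and CON difference remained past it in edgeR with each of the 6 libraries left out in turn. It was not past it with read totals as library sizes (log2 fold change -1.27, adjusted p = 0.690) or on the RPM scale of limma with a pseudocount of 1 (-1.13, adjusted p = 0.753) or 0.1 (-2.06, adjusted p = 0.579).

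mmu-miR-351-5p, which carries the seed of the miR-125 miRNAs, had 2182, 816 and 956 CPM in the CON replicates and 949, 1121 and 1415 CPM in the FAC replicates. The DFO replicates had 320, 1209 and 1783 CPM and the VE replicates 1430, 878 and 892 CPM. Every pair of groups overlapped, and the means of 1318 ± 751, 1162 ± 236, 1104 ± 737 and 1067 ± 315 CPM (SD, n = 3) in CON, FAC, DFO and VE differed by less than the SD of CON. The log2 fold change in edgeR was -0.18 in FAC against CON (95% interval -1.60 to 1.23, adjusted p = 0.944), -0.07 in DFO against FAC (-1.49 to 1.34, adjusted p = 0.987) and -0.12 in VE against FAC (-1.53 to 1.29, adjusted p = 1). These intervals include a 2-fold change in either direction. Among the entries with its seed, miR-351-5p took 0.924% to 17.0% of the counts of a library, and the rest was almost all miR-125a-5p and miR-125b-5p.

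mmu-miR-450a-5p was at the edge of detection. It had 0, 0 and 2 counts in the CON replicates, 165, 58 and 0 in the FAC replicates, 0, 1 and 0 in the DFO replicates and 54, 64 and 1 in the VE replicates. Both groups with higher values had 1 library at 0 or 1 count, so every pair of groups overlapped. Pooled over a group, the ratio of its level in FAC to DFO was 104 (95% counting interval 18.6 to 4143), of FAC to CON 11.9 (3.26 to 98.9) and of VE to CON 16.4 (4.43 to 137). These intervals cover counting error and not the spread between libraries, and edgeR gave no call for it in any of 5 comparisons (adjusted p between 0.458 and 0.985). DESeq2 put it past the threshold before adjustment in DFO against FAC (adjusted p = 0.0972).

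**Figure D2:**
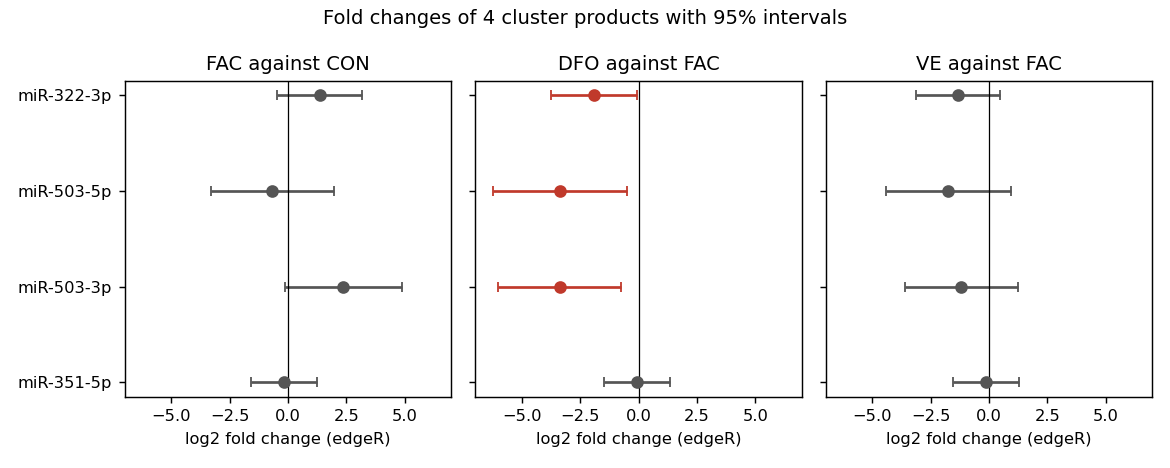
Log2 fold changes from edgeR's quasi-likelihood test (horizontal axis) of 4 cluster products in FAC against CON, DFO against FAC and VE against FAC, with 95% intervals as bars. Red marks the products past the threshold before adjustment, which are miR-322-3p, miR-503-5p and miR-503-3p in DFO against FAC, at -1.91, -3.36 and -3.39.

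Over the 4 members, 0 passed the threshold in FAC against CON, where 9.51% of all 547 tested entries passed, and 0 in VE against FAC, where 9.32% passed. In these comparisons and in VE against CON, edgeR with TMM scaling gave 0 members with an unadjusted p under 0.05. In VE against FAC, 1 member passed with DESeq2 and with the 2 compared groups alone. In DFO against FAC, 2 of 4 passed and both were lower, beside 12.2% of all entries passing in either direction and 4.75% being lower. In DFO against CON, 1 of 4 passed and was lower, beside 4.94% of all entries, and in VE against CON 0 passed, beside 10.4%. The number past an adjusted p of 0.05 in edgeR was 0 of 4 in each of the 5 comparisons, beside 0.183% of all entries in FAC against CON, 0.914% in DFO against FAC, 0.366% in VE against FAC, 0.548% in DFO against CON and 2.01% in VE against CON. The comparisons share libraries, FAC being in 3 of them and CON in 3, so their counts are not independent. Libraries did not overlap for 1 member in FAC against CON (higher, beside 10.1% of all entries), 2 in DFO against FAC (lower, 10.1%) and 1 in VE against FAC (lower, 9.87%). With 4 members, counts of 0 or 1 are near these backgrounds.

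The other products of the 7 genes were taken from a list of 8, of which 6 are entries and 5 were tested. miR-503-3p, the 3p arm of the hairpin shown above, had 144, 23.7 and 23.6 CPM in the CON replicates, 413, 495 and 82.1 CPM in the FAC replicates, 6.20, 18.8 and 69.8 CPM in the DFO replicates and 0.452, 200 and 230 CPM in the VE replicates. The FAC libraries lay above all DFO libraries and overlapped with CON and VE. In edgeR the log2 fold change was -3.39 in DFO against FAC (standard error 1.34, adjusted p = 0.192) and 2.36 in FAC against CON (standard error 1.28, adjusted p = 0.604). Of the 5 tested, 1, miR-503-3p, was past the threshold in DFO against FAC (beside 4.75% of all entries lower), and 0 of 5 were past it in FAC against CON or VE against FAC (beside 9.51% and 9.32% of all entries). Other fits did put miR-503-3p past it in FAC against CON, with total miRNA counts (2.74, adjusted p = 0.409), without a filter (2.58, adjusted p = 0.532), with read totals (5.24, adjusted p = 0.00328) and in limma on log2(RPM + 1) (4.78, adjusted p = 0.00437). In the same order, 23 of 547, 17 of 637, 159 of 547 and 195 of 547 entries were past it as higher. The median of all entries with read totals was 4.35. miR-503-3p passed in VE against FAC with the 2 compared groups alone (-1.46, adjusted p = 0.360), with read totals (-2.56, adjusted p = 0.305) and in limma on log2(RPM + 1) (-2.99, adjusted p = 0.197). There, 42 of 502, 74 of 547 and 100 of 547 entries passed as lower. The DFO and FAC difference of miR-503-3p stayed past the threshold in edgeR with each of the 6 libraries left out in turn, and with all 12 libraries in the other fits its adjusted p lay between 0.0233 (read totals) and 0.260. With read totals, 15 of 547 entries were at an adjusted p under 0.05 in this comparison.

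The remaining products were scarce or uneven. miR-351-3p ranged from 18.4 to 816 CPM over the 12 libraries, both extremes being CON libraries. It did not pass the threshold in any comparison in edgeR with TMM scaling. miR-450b-5p had 2 counts in CON, 226 in FAC, 31 in DFO and 0 in VE, the FAC counts coming from 2 libraries and the DFO counts from 1. Against the floor of 3 counts over the VE group, miR-450b-5p was at least 29.3-fold higher in FAC, a bound on counting error only. miR-542-3p had 157 counts in FAC and 88 in DFO, but 2 in CON and 1 in VE. Its FAC counts came from 2 libraries, and 85 of its DFO counts from DFO replicate 2. miR-450b-3p had 40 counts in FAC, 39 of them in FAC replicate 2, 1 in CON and 0 in DFO and VE. miR-542-5p had 4 counts, all in 1 FAC library, and was not tested.

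**Figure D3:**
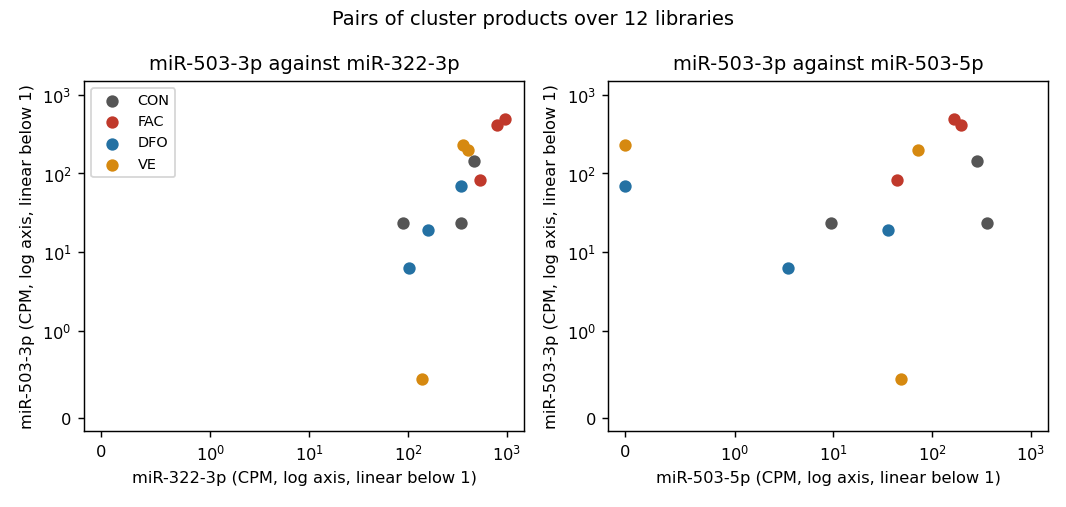
Level of miR-503-3p (vertical axis, CPM) against miR-322-3p (left) and against miR-503-5p (right) in the 12 libraries, on log axes that are linear below 1 CPM, coloured by group. The left panel runs upwards along the levels of both products, whereas in the right panel 2 libraries without a count of miR-503-5p hold 69.8 and 230 CPM of miR-503-3p.

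Over the 12 libraries, the log2 CPM of miR-503-3p and miR-322-3p had a Pearson r of 0.822 and a Spearman rho of 0.853. This made miR-503-3p the second most alike of 302 candidate entries, between miR-30d-3p (r = 0.886) and miR-27a-3p (r = 0.793). The arms of 1 hairpin were less alike than these products of neighbouring hairpins, with an r of 0.119 and a rho of 0.287 for miR-503-5p against miR-503-3p. The correlations are descriptions. The points share the groups and each library's depth and scaling, and no difference between correlations was tested.

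miR-351-5p was most like miR-106b-3p (r = 0.908), miR-484 (r = 0.771) and miR-335-3p (r = 0.672). For miR-503-5p the nearest entries were miR-3074-2-3p (r = 0.697), miR-24-2-5p (r = 0.626) and miR-200a-5p (r = 0.597). miR-450a-5p, with its many libraries at or near 0, was most like let-7f-1-3p (r = 0.971), miR-300-3p (r = 0.879) and miR-30b-5p (r = 0.879). Among the 4 members themselves, r lay between -0.00285 and 0.414, the highest for miR-322-3p with miR-351-5p.

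Shares of counts within a library do not depend on the scaling between libraries. The 5p arm made up 32.2%, 25.1% and 35.0% of miR-503 counts in the FAC replicates, which was the narrowest range of the groups. It made up 66.3%, 93.8% and 28.6% in the CON replicates, 35.7%, 65.5% and 0% in the DFO replicates and 99.1%, 26.6% and 0% in the VE replicates. The dominant arm thus differed between libraries of 1 group in CON, DFO and VE, and was the 3p arm in all FAC libraries. The 95% Wilson interval was 94.99% to 99.8% in VE replicate 1 with 109 counts of both arms, and 0% to 0.521% in VE replicate 3 with 733, so counting error does not cover the gap. An exact permutation test over all assignments of the 12 libraries to 4 groups gave p = 0.709 (adjusted over 4 such tests, 0.787) for the share of the 5p arm. The 5p arm made up 90.4% ± 3.99 of miR-351 counts in FAC and 79.8% ± 22.9 in CON (SD, n = 3), with an exact permutation p of 0.787 over the 4 groups.

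miR-351-5p made up 74.5%, 64.4% and 73.0% of the counts of the 4 members in the CON replicates, 48.5%, 49.6% and 71.1% in the FAC replicates, 75.3%, 86.0% and 83.7% in the DFO replicates and 87.1%, 63.8% and 71.0% in the VE replicates. The lowest shares were those of FAC replicates 1 and 2, and all DFO libraries lay above all FAC libraries. The exact permutation test gave p = 0.0688 over the 4 groups (adjusted 0.275) and p = 0.1 for DFO against FAC, the smallest that 3 libraries against 3 allow. With each library left out in turn, the 4-group exact permutation p ran from 0.0160 (without FAC replicate 3) to 0.199 (without FAC replicate 1). For each read of miR-351-5p there were 0.835, 0.863 and 0.375 reads of miR-322-3p in the FAC replicates, and between 0.0973 and 0.458 in the other 9 libraries.

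**Figure D4:**
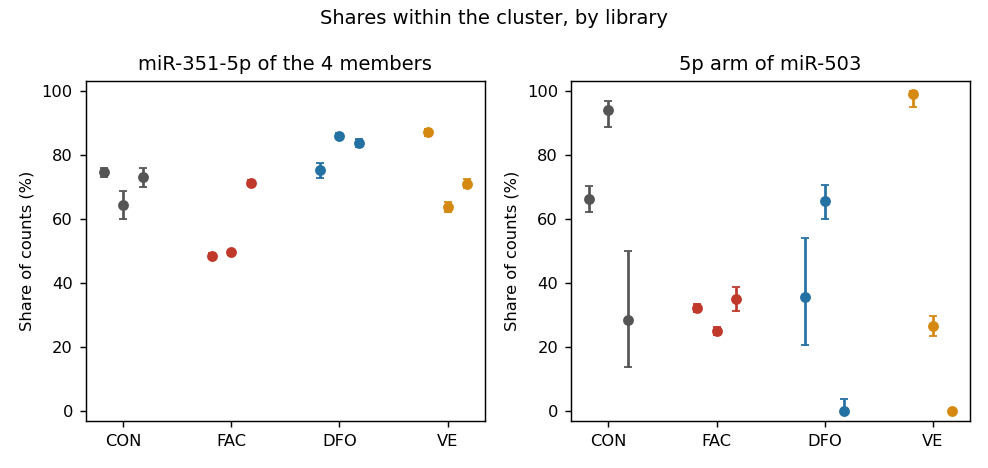
Share (%) of miR-351-5p in the counts of the 4 members (left) and of the 5p arm in miR-503 counts (right) in each library, with 95% Wilson intervals as bars and replicates 1 to 3 from left to right in each group. FAC replicates 1 and 2 have the lowest shares of miR-351-5p, at 48.5% and 49.6%, and the 5p arm runs from 0% to 99.1% within VE.

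Summed over the 4 members, the cluster stood at 1835 ± 947 CPM in CON, 2069 ± 167 in FAC, 1320 ± 856 in DFO and 1425 ± 198 in VE (SD, n = 3). The VE libraries were all below the FAC libraries (exact permutation p = 0.1, the smallest possible), and the 4 groups did not separate (exact permutation p = 0.505, adjusted 0.787). Relative to the read total of a library, as the deposited RPM are, the sum was 67.5 ± 69.6 RPM in CON, 591 ± 167 in FAC, 161 ± 140 in DFO and 157 ± 7.44 in VE (SD, n = 3). The exact permutation p over the 4 groups was 0.00779. RPM carry the miRNA share of that total, which was itself higher in all FAC libraries than in any other.

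On the RPM scale, libraries did not overlap for 2 of 4 members in FAC against CON (higher, beside 31.4% of all entries), 3 in DFO against FAC (lower, 16.1%) and 3 in VE against FAC (lower, 23%). For example, miR-351-5p had 110, 13.7 and 24.6 RPM in CON and 326, 348 and 284 RPM in FAC, groups that overlapped in CPM. In limma on log2(RPM + 1), 3 of 4 members passed the threshold in FAC against CON, all higher, beside 35.6% of all entries, and 2 in VE against FAC, both lower, beside 18.3%. With the read totals as library sizes in edgeR, 2 of 4 passed in FAC against CON, both higher, beside 29.1% of all entries, and 2 in VE against FAC, both lower, beside 13.5%. The log2 fold changes with read totals in FAC against CON were 4.34 for miR-322-3p (adjusted p = 0.00277), 2.63 for miR-503-5p (adjusted p = 0.222) and 2.69 for miR-351-5p (adjusted p = 0.0345) in edgeR, and the median of all entries was 4.35, with 89 of 547 entries at an adjusted p under 0.05. The direction of miR-503-5p and miR-351-5p in FAC against CON therefore flipped with the scale. Both lay below the median of all entries in the edgeR fits with TMM and with read totals, and above it in limma on log2(RPM + 1), at 2.68 and 3.20 beside a median of 0.957. In DFO against FAC on that scale, miR-322-3p had a log2 fold change of -3.34 (adjusted p = 0.0735) and miR-503-5p of -3.91 (adjusted p = 0.250) in edgeR, beside a median of -1.88.

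**Figure D5:**
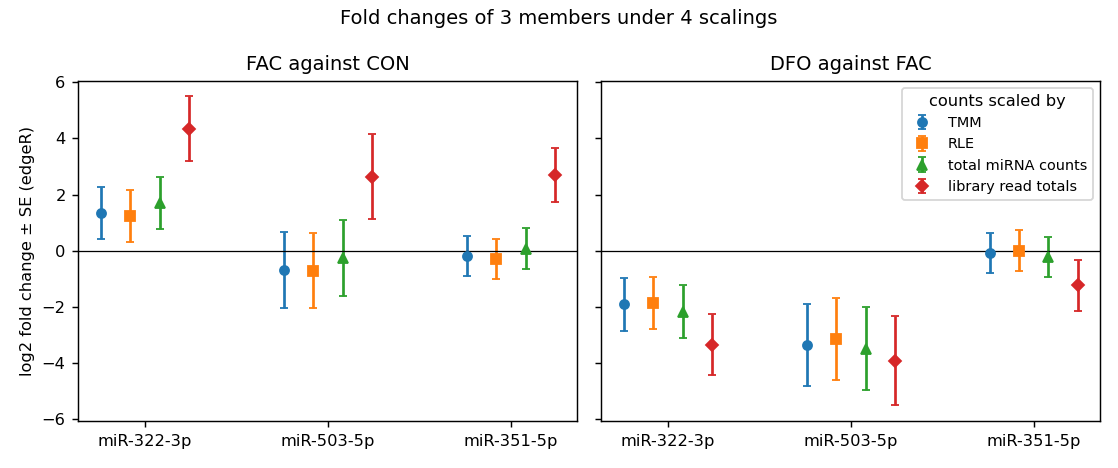
Log2 fold change from edgeR (vertical axis, with standard errors as bars) of miR-322-3p, miR-503-5p and miR-351-5p in FAC against CON (left) and DFO against FAC (right), with counts scaled by TMM, RLE, total miRNA counts or library read totals. In FAC against CON, the read totals move miR-503-5p from -0.69 under TMM to 2.63 and miR-351-5p from -0.18 to 2.69, while in DFO against FAC miR-322-3p and miR-503-5p stay below 0 under all 4.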

How the data were processed

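The authors deposited, for each library, whole-number read counts of 637 mouse miRNA entries, without pooling replicates. The authors also deposited RPM, the same counts scaled to a library total that the sources do not define. The read total named above is this total, worked out for each library from its counts and RPM. Per the labels, reads were 15 to 41 bp long and the build was mm9. The aligner and miRNA database are not given in the sources used here. Counts were tested with edgeR 4.0.16 (quasi-likelihood, TMM, R 4.3.3) in 1 fit of all 12 libraries and 4 groups, over the 547 entries with at least 10 counts in sum, and tested on simulated data. Alternatives were RLE factors, total miRNA counts, read totals as library sizes, DESeq2 1.42.0, no filter, filterByExpr, the 2 compared groups alone, the replicate number as a block, limma 3.58.1 on log2(RPM + 1) and log2(RPM + 0.1), and each library left out. Permutation tests were exact, two-sided and over libraries, with Benjamini-Hochberg adjustment over 4 values. Alike entries were ranked by Pearson r of log2 CPM with a prior count of 2.

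The members and lists were chosen with earlier results of these data known. Named entries are the 4 members, the other products of the cluster, their seed relatives by script and, for each member, the 3 most alike entries. All 10 cluster products and 547 of 637 entries matched the mature RefSeq sequences (GRCm38.p6). The planned shares that need miR-322-5p could not be computed, and the arm shares of miR-503 and miR-351 were chosen after seeing the data. No library was a copy of another: a chi-square of the counts, divided by its degrees of freedom, was 156 or more for each of 66 pairs.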

Additional observations from a re-analysis of the deposited data

How the results depend on the processing

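The main limits are 3 libraries per group, a common coefficient of variation of 1.57 between replicates, and counts of 0 to 6 for miR-503-5p and miR-450a-5p in single libraries. A further limit is a miRNA share of the read total that differs between groups. Of 199 log2 fold changes of the members recomputed with all libraries, 149 kept their direction and side of the threshold. Of the rest, 5 fell below it, 14 rose past it in the same direction and 31 changed direction. Some of those that changed direction also rose past the threshold, as miR-351-5p did in FAC against CON with read totals. Of 120 with 1 library left out, the numbers were 101, 7, 1 and 11. The causes of these changes were not tested.

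With read totals as library sizes, the number of members past the threshold was 2 in FAC against CON (both higher, beside 29.1% of all entries) and 2 in VE against FAC (both lower, beside 13.5%). It was 0 in DFO against CON, beside 93 of 547 entries. limma on log2(RPM + 1) gave 3, 2 and 0 and also 2 in VE against CON, and limma on log2(RPM + 0.1) gave 2, 2 and 0. With log2(RPM + 0.1), 192, 91 and 88 of 547 entries passed in the same order. In VE against FAC, DESeq2, the 2 compared groups alone and the replicate block gave 1 each, beside 60 of 547, 67 of 502 and 32 of 547 entries, and filterByExpr gave 1 in DFO against FAC, beside 57 of 312. DESeq2 kept a count of 2 in DFO against FAC, beside 85 of 547 entries, with miR-450a-5p (-6.04) in place of miR-503-5p. The summed level as deposited RPM differed between FAC and CON by 524 RPM, with an exact permutation p of 0.00779 over the 4 groups.

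Changes of direction (log2) were mostly on the scale of the read totals. In the order read totals, log2(RPM + 1) and log2(RPM + 0.1), miR-503-5p in FAC against CON was at 2.63, 2.68 and 3.34, miR-351-5p at 2.69, 3.20 and 3.25 in FAC against CON, at 1.46, 1.55 and 1.58 in DFO against CON and at 1.23, 1.74 and 1.78 in VE against CON. In the same order, miR-322-3p in DFO against CON was at 1.00, 1.34 and 1.55, and miR-450a-5p in VE against FAC at -0.88, -0.36 and -0.30. Other changes were of values near 0. miR-351-5p was at 0.0794 in FAC against CON with total miRNA counts, at 0.00911 with RLE factors, 0.00908 with DESeq2 and 0.11 with filterByExpr in DFO against FAC, and at 0.0300 with filterByExpr in VE against FAC. miR-322-3p in VE against CON was at -0.21 with RLE factors, -0.22 with DESeq2, -0.0185 with total miRNA counts, -0.0309 without a filter, -0.15 with filterByExpr and -0.18 with the 2 groups alone.

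With the replicate number as a block, miR-503-5p was at 0.89 in FAC against CON and miR-322-3p at -0.0182 in VE against CON, both changes of direction, and miR-503-5p passed the threshold in VE against FAC at -3.81. In DFO against FAC, miR-503-5p was at -5.63 with the block and at -3.36 without it. The replicate block left 39 entries past the threshold in FAC against CON where the fit without it had 52, 54 for 67 in DFO against FAC, 32 for 51 in VE against FAC, 23 for 42 in DFO against CON and 36 for 57 in VE against CON. Deviations from the group means correlated at a mean r of 0.00421 over 18 pairs of libraries with the same number, 0 of them over 0.1. Pairs with different numbers had a mean r of -0.00202. This is not a separate comparison, since deviations within a group sum to 0 and so tie the 2 means together. Over all entries, these correlations thus showed no signal shared by number. For miR-503-5p, however, replicate 3 was the lowest library in every group. It stood there at 9.43 CPM in CON, 44.3 CPM in FAC and 0 CPM in DFO and VE. Neither result can show whether libraries with the same number were prepared side by side.

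With 1 library left out, the number of members past the threshold ran from 0 to 2 in DFO against FAC and from 0 to 1 in VE against CON. It did not move in the other 3 comparisons. In DFO against FAC it was 0 without FAC replicate 1 (beside 41 of 514 entries) or DFO replicate 1 (48 of 538). There it was 1 without FAC replicate 2 (47 of 489), DFO replicate 2 (57 of 535) or DFO replicate 3 (64 of 543). In VE against CON it was 1 without CON replicate 3 (44 of 545). With all libraries, 67 of 547 entries passed in DFO against FAC and 57 in VE against CON. miR-351-5p ran from -0.32 to 0.39 in FAC against CON, from -0.60 to 0.27 in DFO against FAC, from -0.79 to 0.32 in DFO against CON and from -0.57 to 0.27 in VE against CON. miR-503-5p ran from -1.06 to 0.11 in FAC against CON, miR-322-3p from -0.46 to 0.48 and miR-450a-5p from 3.25 to 8.77 in VE against CON, and miR-450a-5p from -4.82 to 1.72 in DFO against CON. The FAC minus CON difference of the summed level ran from -49.3 to 781 CPM, that of the share of miR-351-5p from -21.6 to -10.3 percentage points, with a 4-group exact permutation p of 0.0160 to 0.199, and that of the 5p arm of miR-351 from -2.26 to 19.7 percentage points. The planned shares that need miR-322-5p were not run, as it was not analysed here.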
